A study of Mus musculus with 8 samples.

Results

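The comparison set 2 Jak2V617F GLUT1/3 WT clones against 2 Jak2WT GLUT1/3 WT clones of the mouse myeloid cell line 32D, which asks what the mutant kinase changes in cells that can still take up glucose through GLUT1 and GLUT3. These are 4 of the 8 libraries of the series, and the other 4 come from clones of both backgrounds in which both transporters had been knocked out (dKO). Genes entered the comparison with an FPKM (fragments scaled to gene length and library size, as deposited) of at least 1 in at least 2 of these 4 libraries, and 11247 of the 56748 genes in the table did. At that limit, 673 genes reached it in exactly 2 libraries and had a median mean level of 1.09 FPKM, while 681 genes reached it in 1 library and had one of 0.72 FPKM.

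32D cells grow only with interleukin-3 (IL-3), and all clones here had been transduced with murine Jak2, either wild type (Jak2WT) or mutant (Jak2V617F). A separate transduced line stood behind each background, so line and mutation cannot be told apart, and clones of one line are not independent transductions. Single cells had been expanded into the clones, which carried the numbers 1 and 3 in both groups. All of them were kept for 24 h in RPMI with 5 mM glucose, 1 mM glutamine, 2 ng/ml IL-3 and fetal calf serum, so the wild-type cells had their cytokine throughout.

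JAK2 is the tyrosine kinase bound to the receptors for IL-3 and erythropoietin, and it switches on the transcription factor STAT5. The substitution V617F lies in the pseudokinase domain, which normally restrains the kinase, and it leaves signalling active without the hormone. In people the mutation drives myeloproliferative neoplasms, with too many red cells, platelets or granulocytes. The codon concerned is shown here because it is the designed difference between the groups, and it lies at chr19:29272328-29272330 (GRCm39, forward strand) in exon 13 of the annotated mouse transcript Jak2-201. The stretch of this exon from 29272298 to 29272343 reads as follows in the reference, with the codon of that valine in capitals.
Jak2 V617F codon: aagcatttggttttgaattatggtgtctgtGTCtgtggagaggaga
A table of FPKM holds no bases, so the mutation itself was not checked.

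The 4 libraries held 16846011 to 37448557 reads on genes, recovered from the FPKM values, which times gene length were whole multiples of one step per library. The squared correlation of log2(FPKM + 1) across genes was 0.979 between the Jak2WT clones and 0.971 between the Jak2V617F clones, against 0.881 to 0.888 between backgrounds. Of 22 lymphoid, endothelial and stromal markers, 2 passed the filter (Cd79b and Pecam1), and the summed level of the list was 36.2 to 40.9 FPKM in the 4 libraries. The test was limma's, fitted once to log2(FPKM + 1) of all 8 libraries. A gene is called where the p-value adjusted over all 11247 genes is below 0.05, and a difference below is always Jak2V617F minus Jak2WT on this log2 scale, which is compressed for genes near or below 1 FPKM. Paired values are those of clones 1 and 3, with Jak2WT first where both backgrounds are given, and SE is the standard error of the fit. Permuting the clone labels of one gene exactly gives a two-sided p of 0.33 at best, so the p-values rest on the spread pooled over genes and groups, and whether they reach beyond these clones was not tested.

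Of the 11247 genes, 1852 (16.5%) were called higher and 1793 (15.9%) lower in Jak2V617F. The median difference over all genes was 0.01, and 294 genes were higher and 264 lower by at least 1 on the log2 scale, while 56 and 54 were so by at least 2. In all 3645 called genes the clones of one background lay apart from those of the other, which was also true of 70.5% of all genes tested. The split depends on the scaling of the libraries, whose summed FPKM was 279496 and 290869 in the Jak2WT clones and 329939 and 305123 in the Jak2V617F clones. With every library scaled to the same sum, the median difference became -0.12, 1251 genes were higher and 2961 lower, and 29.7% of the called genes were higher in place of 50.8%. With voom on the recovered reads 34.7% were higher. Small differences in either direction are best read against that shift. Fits that left out 1 clone called fewer genes, 857 higher and 935 lower without Jak2WT clone 1, 894 higher and 795 lower without Jak2WT clone 3, 1070 higher and 1328 lower without Jak2V617F clone 1 and 1492 higher and 1249 lower without Jak2V617F clone 3.

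**Figure D1:**
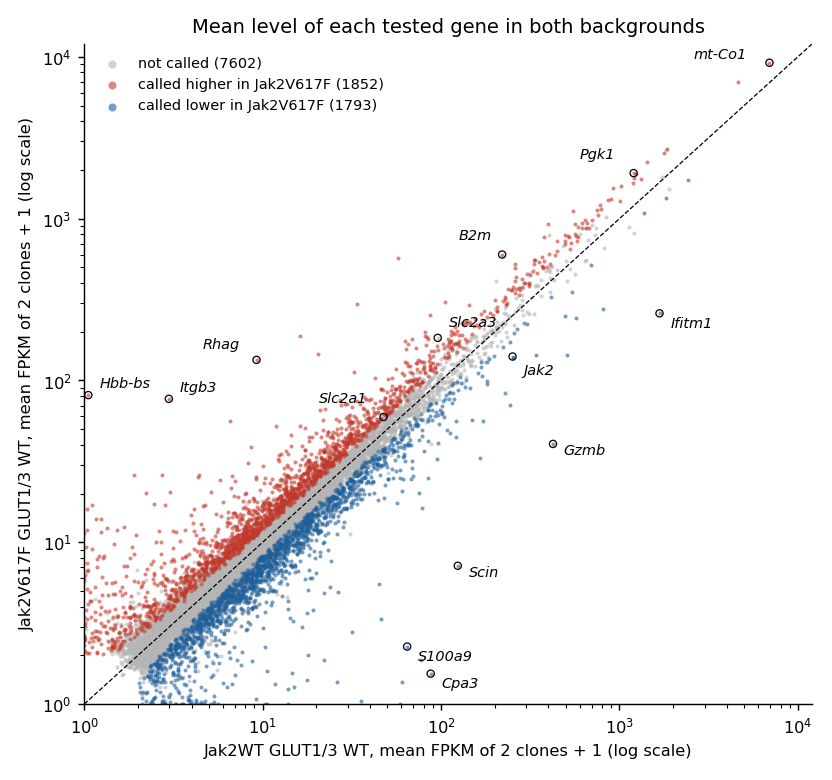
Mean FPKM + 1 of the 2 Jak2WT GLUT1/3 WT clones (x axis) and of the 2 Jak2V617F GLUT1/3 WT clones (y axis) for the 11247 tested genes, both axes on a log scale, with 1852 genes called higher in red, 1793 called lower in blue and the dashed line at equal levels. Hbb-bs, Itgb3 and Rhag stand far above the line, and Cpa3, S100a9, Scin and Gzmb far below it.

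Jak2 itself was lower in the mutant background. Its level was 258 and 243 FPKM in Jak2WT clones 1 and 3 and 139.8 and 139 FPKM in Jak2V617F clones 1 and 3, without overlap (difference -0.84, standard error 0.09, adjusted p = 0.00106). The counts do not separate the transduced cDNA from the endogenous gene. Of the 11 genes for Janus kinases and STATs, all tested, 2 were called higher and 5 lower. Jak3, which pairs with the common gamma chain of lymphoid cytokine receptors, rose from 7.34 and 7.01 to 13.9 and 16.2 FPKM (0.97, adjusted p = 0.00112), and Stat3, the factor downstream of the IL-6 and G-CSF receptors, from 16.6 and 17.7 to 32.4 and 29 FPKM (0.80, adjusted p = 0.00157). Both factors that JAK2 chiefly uses in blood cells were lower, Stat5a at 7.59 and 9.08 FPKM against 6.17 and 5.86 (-0.41, adjusted p = 0.0157) and Stat5b at 16.1 and 17.5 against 12.8 and 10.7 (-0.48, adjusted p = 0.0136). Jak1 fell by less (-0.37, adjusted p = 0.0121), and Stat4, at 1.97 and 2.05 FPKM in Jak2WT, was nearly absent in Jak2V617F at 0 and 0.0693 FPKM. Jak1, Stat5a and Stat5b were not called in 2 or 3 of the 4 fits that left out 1 clone, with adjusted p up to 0.114, and the list then had 2 lower members without Jak2WT clone 3 or Jak2V617F clone 3.

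STAT5 acts on survival and proliferation genes and on its own inhibitors, and its listed targets moved in both directions. Of 42 listed targets and feedback genes 35 were tested, 9 were called higher and 6 lower, and the median was 0.05. The 9 were the kinases Pim1 and Pim2, the anti-apoptotic Bcl2l1 (BCL-XL) and Mcl1, the growth regulators Myc and Ccnd2, the inhibitors of differentiation Id1 and Id2, and the phosphatase Dusp4. Pim1 stood at 141 and 127 FPKM in Jak2WT and 223 and 214 in Jak2V617F (0.70, standard error 0.09, adjusted p = 0.00216). Bcl2l1 stood at 16.2 and 19.5 against 48 and 39.7 FPKM (1.25, SE 0.18, adjusted p = 0.00294), and Id2 at 5.35 and 4.7 against 16.8 and 16.6 FPKM (1.56, SE 0.23, adjusted p = 0.00306). All of these levels were higher in both mutant clones than in either wild-type clone. Pim2 had the same direction at 43.4 and 39.9 against 119.5 and 85 FPKM (1.26, adjusted p = 0.016), with mutant clones that differed more, and Myc moved from 101 and 105 to 160.2 and 154 FPKM (0.60, adjusted p = 0.00432). Differences of Mcl1 (0.45), Ccnd2 (0.70), Id1 (0.66) and Dusp4 (0.87) were of the same order. Over the 13 alternatives Pim2 lost its call in 4 (adjusted p up to 0.088), Ccnd2 in 3, and Mcl1 and Id1 in 2 each.

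Of the feedback inhibitors Cish, Socs1, Socs2 and Socs3, 0 were called higher. Cish, the most direct of the STAT5-induced inhibitors, was at 18.7 and 18.8 FPKM in Jak2WT and 15.1 and 16.7 in Jak2V617F (difference -0.22, adjusted p = 0.208). Socs2 (0.20, adjusted p = 0.132) and Socs3 (-0.16, adjusted p = 0.631) were not called either, and the Socs3 clones overlapped. Socs1, which inhibits JAK2 by binding its kinase domain, was called lower, at 2.36 and 3.43 FPKM against 0.145 and 0.311 (-1.66, adjusted p = 0.00171). This gene lies on chromosome 16, described below. Among the other called members, Il2ra, the alpha chain of the IL-2 receptor, was at 27.1 and 23.2 FPKM in Jak2WT and 0.482 and 0.276 in Jak2V617F (-4.24, adjusted p = 0.00138). The granule protease Gzmb dropped from 538 and 309 to 62.2 and 16.9 FPKM (-3.60, adjusted p = 0.0146) with mutant clones far apart and the call lost in 3 of 13 alternatives, and Xbp1 from 68.3 and 80.0 to 42.2 and 41.2 FPKM (-0.81, adjusted p = 0.00232). Osm and Dusp1 were the remaining members called lower. With libraries scaled to the same sum the list had 9 higher and 9 lower members and a median of -0.10. It had 5 higher and 3 lower ones without Jak2WT clone 1, 6 and 4 without Jak2WT clone 3, 6 and 5 without Jak2V617F clone 1 and 10 and 3 without Jak2V617F clone 3.

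The core of a STAT5 site, TTCNNNGAA, reads the same on both strands, and it was searched from 250 bases before to 50 after the annotated start of each gene. It was found in 850 of 11215 promoters of tested genes (7.58%), in 4 of the 35 tested list members (11.4%), in 0 of the 9 called higher and in 2 of the 6 called lower. Both are shown with 10 bases to either side and the motif in capitals, Gzmb at chr14:56499736-56499764 and Socs1 at chr16:10603835-10603863 (GRCm39, both on the reverse strand and written along the gene). The Socs1 match begins 22 bases past the start.
Gzmb: ggcaggagttTTCATAGAAagcatgtgat
Socs1: gctagccgggTTCCAAGAAgggtcgagat
Over the whole comparison the motif stood in 7.21% of the promoters of genes called higher and 8.09% of those called lower, close to the share among all.

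Receptors for cytokines moved in both directions. Of 35 listed receptor genes 18 were tested, 9 were called higher and 3 lower (median 0.20), but with equal sums 6 and 6 were (median 0.06) and with voom 8 and 6. The median was 0.0228 with the filter over all 8 libraries and -0.00836 with no filter. Higher members numbered 6 without Jak2WT clone 1 or either Jak2V617F clone and 4 without Jak2WT clone 3, and lower members 0 to 2. Epor, the erythropoietin receptor, rose from 3.87 and 3.68 to 7.16 and 5.63 FPKM (0.62, adjusted p = 0.00965), and Il2rb, the beta chain shared by IL-2 and IL-15, from 3.56 and 4.07 to 9.39 and 8.22 FPKM (1.02, adjusted p = 0.00402). The receptor that keeps these cells alive moved in both of its parts. Its alpha chain Il3ra was at 6.83 and 6.61 against 8.26 and 9.38 FPKM (0.35, adjusted p = 0.024), while the IL-3-specific beta chain Csf2rb2 fell from 236 and 207 to 157 and 161 FPKM (-0.47, adjusted p = 0.0455). Each of these last calls was lost in 6 of 13 alternatives, with adjusted p up to 0.207 for Csf2rb2, a close paralogue of Csf2rb whose reads the counting could share. Of the interferon receptor chains, Ifnar2 was higher (0.70, adjusted p = 0.00232) and Ifngr2 lower (-0.67, adjusted p = 0.0146), which was lost in 3 of 13 alternatives, as Epor was in 1. On chromosome 16, described below, lie 4 of the tested receptor genes, and without them 7 of 14 were higher and 2 lower.

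Genes of the megakaryocyte lineage, which gives rise to platelets, had the highest median of the lists. Of 24 genes 13 were tested, 10 were called higher and 1 lower, and the median was 1.3 against 0.01 over all genes. Members such as Selp passed the filter only through the mutant clones. The median was 1.02 with no filter and 1.05 with the filter over all 8 libraries. Itgb3 and Itga2b encode the chains of the platelet fibrinogen receptor. Itgb3 was at 2.08 and 1.89 FPKM in Jak2WT and 78.9 and 73.1 in Jak2V617F (4.69, standard error 0.28, adjusted p = 0.000111), and Itga2b at 62.2 and 61.3 against 169 and 179 FPKM (1.48, SE 0.08, adjusted p = 8.14e-05). The glycoprotein gene Gp9 rose from 1.46 and 1.9 to 8.43 and 9.52 FPKM (1.90, adjusted p = 0.000167), the granule adhesion molecule Selp from 0.0687 and 0.222 to 2.32 and 2.34 (1.54, adjusted p = 0.000449), and Zfpm1, which encodes the GATA1 partner FOG1, from 84.7 and 87.4 to 277 and 225 (1.53, adjusted p = 0.000364). The late platelet genes Pf4 and Ppbp stayed below the filter, with 0 FPKM in 3 of the 4 libraries each. Thbs1, a platelet granule protein also made by other cells, was the member called lower, at 14.1 and 5.13 FPKM in Jak2WT and 0 in both mutant clones.

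Erythroid genes moved with them. Of 39 listed 25 were tested, 14 were called higher and 2 lower, with a median of 0.53, and 1 was lower without Jak2WT clone 1 or 3. The transcription factors that set up this lineage were among the 14, with Gata1 at 30.9 and 28.8 FPKM in Jak2WT and 58.1 and 48.7 in Jak2V617F (0.81, adjusted p = 0.00377) and Lmo2 at 6.77 and 7.69 against 31.9 and 27.5 FPKM (1.90, adjusted p = 7.15e-05). With no filter the median of the erythroid list was 0.42. Genes of the red cell surface had large differences, but Kel, like Hbb-bs below, passed the filter only through the mutant clones. Rhag, an ammonium channel of the Rhesus complex, was at 6.18 and 10.3 against 133 and 133 FPKM (3.90, standard error 0.19, adjusted p = 4.74e-05), and the Kell antigen gene Kel at 0 and 0.0624 FPKM, or 0 and 3 reads, against 10.8 and 11 FPKM (3.53, SE 0.17, adjusted p = 4.74e-05).

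Globin followed at unequal levels. Hbb-bs, an adult beta globin gene, had 1 read in each Jak2WT clone and 109.8 and 50.5 FPKM in Jak2V617F clones 1 and 3 (6.16, adjusted p = 9.03e-05), and the mutant clones themselves differed. Hba-a1, an alpha globin gene, rose from 46.7 and 66.3 to 709 and 430.2 FPKM (3.29, adjusted p = 0.00117). Globin genes are near-identical copies, and reads shared between them make the level of any one of them uncertain. Of the haem synthesis genes, Alad, Urod, Uros and Ppox were not called, while Fech was called higher and Cpox lower. The transferrin receptor Tfrc, through which erythroid cells take up iron, was lower at 182 and 179 against 97.7 and 91.6 FPKM (-0.92, adjusted p = 0.00755). Tfrc and Cpox, the 2 erythroid members called lower, both lie on chromosome 16.

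**Figure D2:**
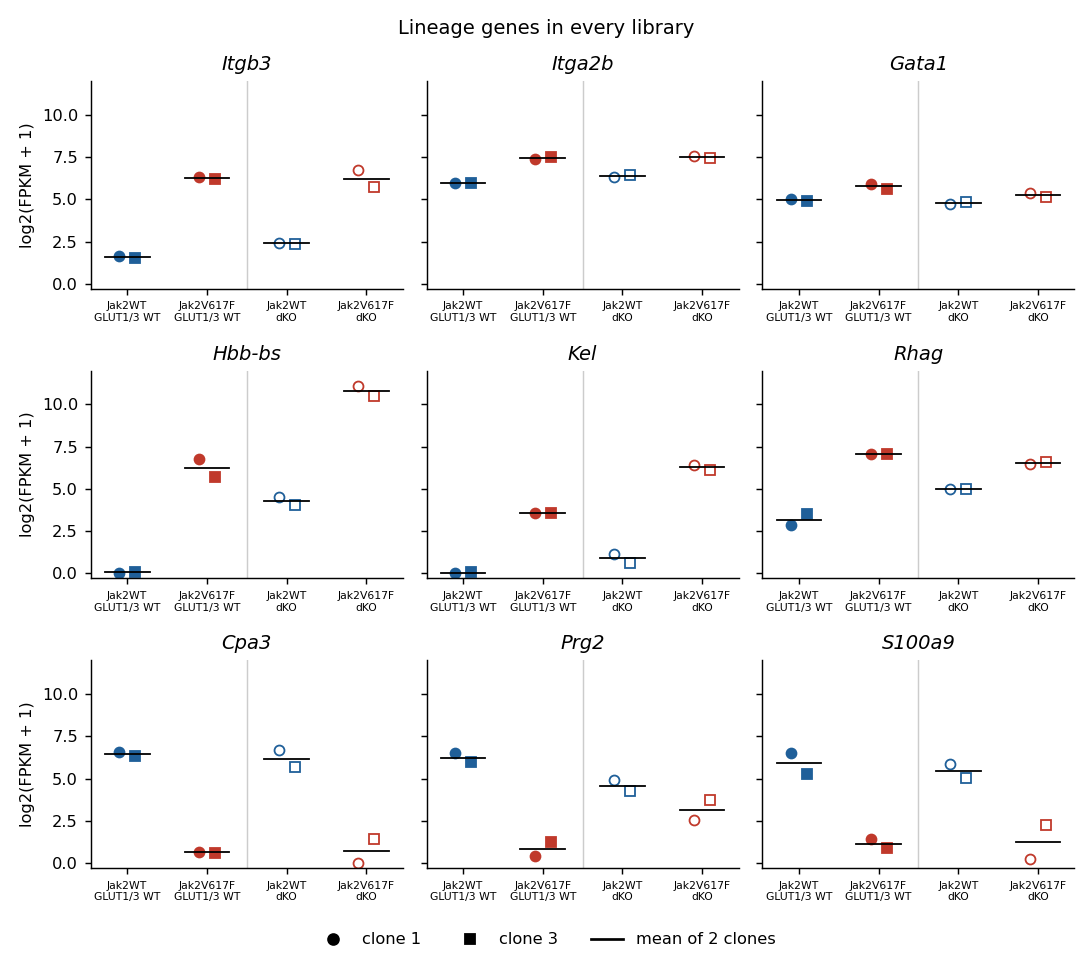
Level of 9 lineage genes as log2(FPKM + 1) in each of the 8 libraries, with circles for clone 1, squares for clone 3, filled symbols for GLUT1/3 WT, open symbols for GLUT1/3 dKO, blue for Jak2WT, red for Jak2V617F and bars at the mean of the 2 log2 values. In the GLUT1/3 WT clones the mutant symbols lie above the wild-type ones for the megakaryocyte and erythroid genes and below them for Cpa3, Prg2 and S100a9.

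GATA1 binds the core AGATAA, and because its gene and those of its partners moved with the erythroid and megakaryocyte genes, the 250 bases before each annotated start were searched for it on both strands. This search was chosen after the values had been seen. The motif stood in 907 of 11215 promoters of tested genes (8.09%) and in 9.76% of those of genes called higher. Among the 38 tested members of both lists 10 had it (26.3%), and among the 24 called higher 8 did (33.3%). The promoters of 5 of these 8 are shown over the 120 bases before the start, written along the gene, with each match in capitals (GRCm39). They are Kel (chr6:41681274-41681393, reverse strand), Rhd, a Rhesus antigen gene (chr4:134591725-134591844, forward), Epb42, a membrane skeleton gene (chr2:120867554-120867673, reverse), F2rl2, a thrombin receptor gene (chr13:95833240-95833359, forward), and the glycoprotein gene Gp5 (chr16:30129632-30129751, reverse).
Kel: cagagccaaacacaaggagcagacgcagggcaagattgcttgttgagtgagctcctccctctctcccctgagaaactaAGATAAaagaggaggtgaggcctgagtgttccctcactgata
Rhd: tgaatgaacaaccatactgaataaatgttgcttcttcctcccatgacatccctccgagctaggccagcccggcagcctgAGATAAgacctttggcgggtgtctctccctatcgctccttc
Epb42: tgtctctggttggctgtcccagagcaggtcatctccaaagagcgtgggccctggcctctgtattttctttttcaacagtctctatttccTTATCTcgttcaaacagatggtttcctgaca
F2rl2: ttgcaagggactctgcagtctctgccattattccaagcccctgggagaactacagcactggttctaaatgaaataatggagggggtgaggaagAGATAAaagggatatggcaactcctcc
Gp5: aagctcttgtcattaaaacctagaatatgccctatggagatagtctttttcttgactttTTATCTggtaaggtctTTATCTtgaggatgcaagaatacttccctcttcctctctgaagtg
Where the letters AGATAA appear on the opposite strand they read TTATCT here. Matches at this distance from the start were counted as letters only, and binding was not measured.

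In contrast, granulocyte, eosinophil and mast cell products were more often lower than higher in Jak2V617F. The granulocyte genes given with values were all called lower, and those called higher are not given here. Of 32 granulocyte genes 17 were tested, 3 were called higher and 9 lower, with a median of -0.45. With no filter, when genes near 0 enter, the median was -0.0478. Without Jak2WT clone 3 or either Jak2V617F clone, the list had 1 higher call. Srgn and Calr, which many other cells also make, are among the 9. S100a9 and S100a8 encode the subunits of calprotectin, an abundant protein of neutrophils. S100a9 was at 88.8 and 38.3 FPKM in Jak2WT clones 1 and 3 and 1.7 and 0.835 in the mutant (-4.74, standard error 0.67, adjusted p = 0.00254), and S100a8 at 20.9 and 7.14 against 0.404 and 0.145 FPKM (-3.40, SE 0.61, adjusted p = 0.00608). Ngp, a neutrophil granule protein, dropped from 88.1 and 30.9 to 0.229 and 0.494 FPKM (-5.30, adjusted p = 0.00217). Jak2WT clone 1 was above clone 3 in all of these genes, and both stayed above both mutant clones. Cebpe, the transcription factor of the secondary granules, was closer between clones at 44.2 and 41.9 against 18 and 16.3 FPKM (-1.28, adjusted p = 0.00231).

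The eosinophil granule genes Prg2 and Epx went the same way. Prg2 was at 89.4 and 62.7 FPKM in Jak2WT and 0.334 and 1.4 in Jak2V617F (-5.41, adjusted p = 0.000368), and Epx at 41 and 28.4 against 0.0512 and 0.0245 (-5.08, adjusted p = 3.10e-05). Of 30 mast cell and basophil genes 7 were tested, with 0 called higher and 4 lower, or 2 lower when any 1 of the 4 clones was left out. The mast cell protease Cpa3 had the largest of these differences, from 94.8 and 78.2 to 0.554 and 0.531 FPKM (-5.82, standard error 0.46, adjusted p = 0.000368), and the cytokine Il6 was also lower, at 9.91 and 8.74 against 1.35 and 1.13 FPKM (-2.20, adjusted p = 0.00318). Scin, an actin-severing protein of secretory cells, dropped from 141 and 106 to 10.8 and 1.54 FPKM (-4.49, adjusted p = 0.0129), with mutant clones far apart, and this call was lost in 4 of 13 alternatives (adjusted p up to 0.0653).

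Monocyte and surface genes were mixed. The monocyte genes given with values were all called higher, and those called lower are not given here. Of 28 monocyte and macrophage genes 11 were tested, 3 were higher and 3 lower, or 3 and 0 without Jak2WT clone 1. The chemokine receptor Ccr2 rose from 0.747 and 1.07 to 23.9 and 26.1 FPKM (3.77, adjusted p = 1.36e-05), and the Fc receptor genes Fcgr3, from 0.0145 and 0.0664 to 6.4 and 4.89 FPKM (2.67, adjusted p = 0.000863), and Fcgr1, from 4.57 and 4.39 to 13.9 and 13.9 (1.44, adjusted p = 0.000573). Among 22 tested adhesion and chemokine receptor genes 7 were higher and 6 lower. The laminin receptor chain Itga6 rose by 2.77 (adjusted p = 0.000986) and the leukocyte beta2 chain Itgb2 by 1.15 (adjusted p = 0.00143), while Cd48, an adhesion molecule of haematopoietic cells, was lower at 88.3 and 100.4 against 32.8 and 30.6 FPKM (-1.54, adjusted p = 0.000801).

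Glucose transport and its use are the subject of the knockout series. Over all genes 16.5% were called higher and 15.9% lower, against which the list counts below stand. Slc2a1, which encodes GLUT1, was at 44.7 and 48.4 FPKM in Jak2WT and 64 and 53 in Jak2V617F (0.32, standard error 0.15, adjusted p = 0.138). Slc2a3, which encodes GLUT3, was at 97.7 and 91.9 against 198 and 166 FPKM (0.93, SE 0.49, adjusted p = 0.183). Neither was called, although both mutant clones lay above both wild-type clones for either gene. The shared estimate of the spread includes the dKO clones, whose Slc2a3 levels were 16 and 49.5 FPKM in Jak2WT and 48.2 and 23.8 in Jak2V617F, and in a fit of the 4 GLUT1/3 WT libraries alone Slc2a3 was called (0.93, adjusted p = 0.00547) and Slc2a1 was not (adjusted p = 0.0942). Of the 7 tested genes for glucose and lactate transporters, out of 18, Slc2a6 was the 1 called, lower at 1.1 and 1.01 against 0.16 and 0.209 FPKM (-0.79, adjusted p = 0.0101), and it was lost without Jak2WT clone 1.

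Of 22 glycolytic genes 18 were tested, 3 were called higher and 1 lower, and the median was 0.10. Without Jak2WT clone 1, Jak2WT clone 3 or Jak2V617F clone 1 the number higher was 0, and without Jak2V617F clone 3 it was 2. The 3 were Pgk1, phosphoglycerate kinase, at 1183 and 1216 against 2026 and 1795 FPKM (0.67, adjusted p = 0.0228), Gpi1, glucose-6-phosphate isomerase, at 181 and 181 against 264 and 227 FPKM (0.44, adjusted p = 0.0193), and the pyruvate kinase Pkm at 760.5 and 761 against 1122 and 972 FPKM (0.46, adjusted p = 0.0495). Pkm was lost in 9 of 13 alternatives, Pgk1 and Gpi1 in 4. The myeloid hexokinase Hk3 was lower, from 158 and 169 to 27.2 and 36.9 FPKM (-2.33, adjusted p = 0.0191), and lost in 5 alternatives (adjusted p up to 0.0915). Scaled to the same summed FPKM the list had 2 higher and 3 lower members and its median turned to -0.05, above the -0.12 of all genes.

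HIF-1 is the transcription factor that raises glycolytic genes when oxygen is low. The gene of its regulated subunit, Hif1a, was not called, at 27.4 and 27.4 against 28 and 26.4 FPKM (-0.01, adjusted p = 0.924). Of 35 listed subunits and targets 27 were tested, 10 were called higher and 1, Tfrc, lower, with a median of 0.13. Without Jak2WT clone 3 the number higher was 4, and without Jak2WT clone 1 or Jak2V617F clone 1 it was 6. P4ha1, a collagen prolyl hydroxylase, rose from 36.4 and 35.8 to 83.3 and 72.4 FPKM (1.08, standard error 0.10, adjusted p = 0.000656), Ddit4, an inhibitor of mTORC1, from 46.5 and 44.2 to 93.6 and 80.3 (0.92, SE 0.12, adjusted p = 0.00175), and the stress gene Ndrg1 from 25.7 and 24.1 to 55.6 and 37.3 (0.85, SE 0.19, adjusted p = 0.014). Ndrg1 was lost in 4 of 13 alternatives. Pdk1, the kinase that holds pyruvate out of mitochondria, was at 25.3 and 24.6 against 37.4 and 34.9 FPKM (0.52, adjusted p = 0.00542). In the fit with equal sums 8 members were higher and 3 lower, and the median was -0.0133, above the -0.12 of all genes. With voom the median was 0.0525, against -0.0984 over all genes.

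Mitochondrial genes, like all genes, split according to the scaling. Of 24 tested genes of the tricarboxylic acid cycle 5 were called higher and 4 lower, and of 70 tested nuclear genes of oxidative phosphorylation 10 and 9. Over all genes 16.5% were higher and 15.9% lower. With equal sums the list counts became 4 and 9 and 3 and 18, and with voom 4 and 9 and 5 and 12. All genes then had 1251 higher and 2961 lower with equal sums, and 1409 and 2655 with voom. For oxidative phosphorylation, leaving out 1 clone gave 3 and 6 without Jak2WT clone 1, 3 and 3 without Jak2WT clone 3, 4 and 7 without Jak2V617F clone 1 and 6 and 5 without Jak2V617F clone 3. For the cycle it gave 1 and 3, 2 and 2, 1 and 4, and 4 and 3 in that order. The 13 protein genes of the mitochondrial genome had 2 higher and 3 lower members and a median of -0.30, against 1 and 7 with equal sums. Its counts ranged from 0 to 2 higher and 0 to 5 lower members without 1 clone. Its most abundant transcript, mt-Co1, was higher at 6674 and 7183 against 9799 and 8576 FPKM (0.40, adjusted p = 0.0349), and mt-Nd1 lower at 2338 and 2499 against 1855 and 1627 FPKM (-0.48, adjusted p = 0.0106). The call of mt-Co1 was lost in 6 of 13 alternatives (adjusted p up to 0.822) and that of mt-Nd1 in 2 (up to 0.413). The share of the summed FPKM on mitochondrial genes was 6.11 and 6.25% in Jak2WT and 5.72 and 5.42% in Jak2V617F.

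DNA replication genes were lower almost throughout their list. All 42 listed genes were tested, 0 were called higher and 38 lower, and the median was -0.68. Rrm2, the regulated subunit of the reductase that makes deoxynucleotides, was at 66.7 and 70.7 FPKM in Jak2WT and 27.6 and 22 in Jak2V617F (-1.44, standard error 0.13, adjusted p = 0.000607). Of the replicative helicase all 6 subunits, Mcm2 to Mcm7, were called lower, with Mcm4 at 58.3 and 62.5 against 25.7 and 21.5 FPKM (-1.32, SE 0.11, adjusted p = 0.000409). Cdc6, which loads that helicase, went from 10.7 and 10.5 to 4.98 and 3 FPKM (-1.24, adjusted p = 0.00279), the thymidylate synthase gene Tyms from 14.7 and 15.5 to 6.88 and 6.52 (-1.07, adjusted p = 0.000296), and the sliding clamp gene Pcna from 106 and 115 to 83.8 and 68.8 (-0.53, adjusted p = 0.0164), whose call was lost in 4 of 13 alternatives (adjusted p up to 0.1). Cdt1, Gins4, Pole2 and Prim1 were the 4 not called. Mcm4, Cdc45 and Rfc4 lie on chromosome 16, and without them 35 of 39 were lower and the median was -0.65.

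Genes of the cell cycle and its checkpoints went along, with 0 of 39 tested called higher and 22 lower (median -0.50), and 14 lower without Jak2WT clone 3. Ccne1, the cyclin that starts S phase, dropped from 16.4 and 18.4 to 6.05 and 4.05 FPKM (-1.62, standard error 0.16, adjusted p = 0.000739) and Cdk6, a kinase of G1, from 63.6 and 70.2 to 25.9 and 21.6 (-1.46, SE 0.12, adjusted p = 0.000394). Mki67, the antigen of cycling cells, was at 115 and 109 against 42.9 and 49.7 FPKM (-1.26, adjusted p = 0.0016), and the repair gene Brca1 at 9.81 and 9.5 against 4.32 and 3.55 (-1.12, adjusted p = 0.000882). In bulk RNA, fewer cells in a phase and less RNA per cell cannot be told apart. The dKO clones differed from this: there 9 of the 42 replication genes were called higher in Jak2V617F and 0 lower (785 genes higher, 6.98%, and 1157 lower, 10.3%, over all genes), and 35 of 42 had a called interaction, the difference in GLUT1/3 WT clones minus that in dKO clones, against 1270 of all genes (11.3%). Leaving out 1 clone cut that last number to 142 without Jak2WT clone 1, 70 without Jak2WT clone 3, 427 without Jak2V617F clone 1 and 858 without Jak2V617F clone 3.

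**Figure D3:**
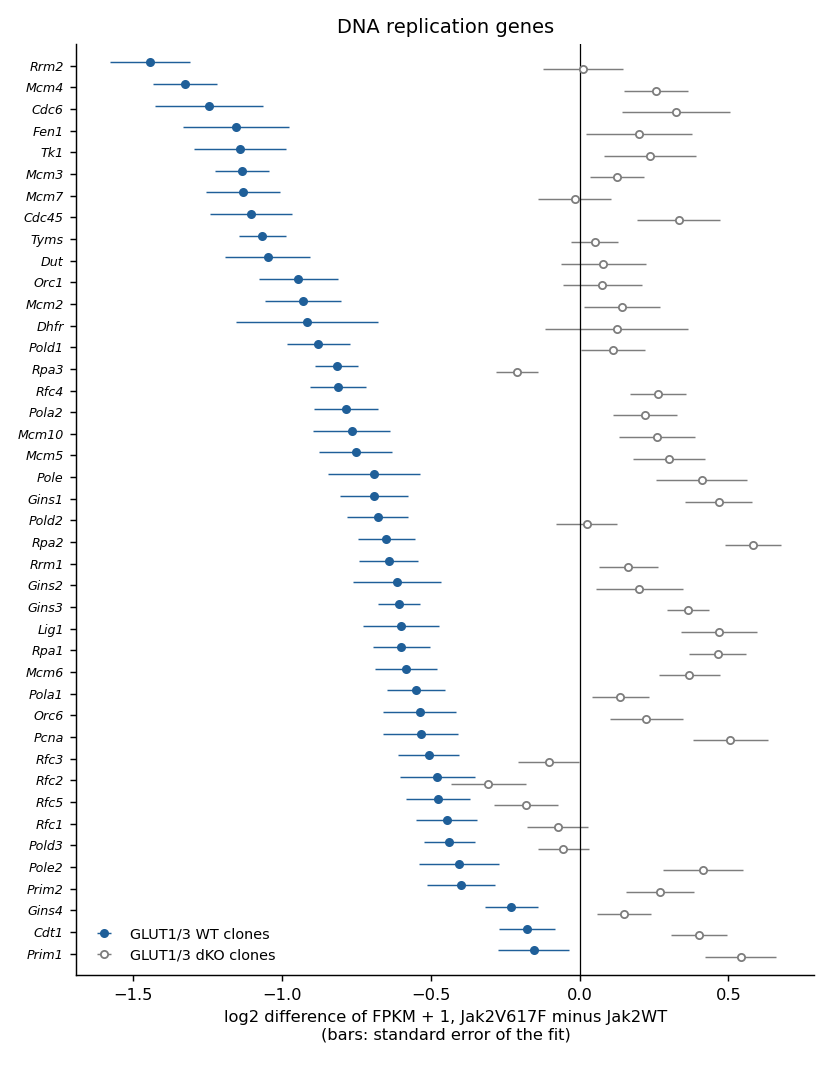
Difference between Jak2V617F and Jak2WT on log2(FPKM + 1) (x axis) for the 42 DNA replication genes (y axis), with filled circles for the GLUT1/3 WT clones, open circles for the dKO clones and bars for the standard error of the limma fit. The filled circles all lie below 0, from -1.44 for Rrm2 to -0.15 for Prim1, and 35 of the 42 open circles lie above it.

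Survival genes moved in both directions. Of 31 tested genes of apoptosis and the p53 response 15 were called higher and 8 lower, and 3 were lower without Jak2WT clone 1, Jak2WT clone 3 or Jak2V617F clone 1 and 5 without Jak2V617F clone 3. Trp53 itself was among the 8, and targets of its protein were among the 15, with the cyclin G gene Ccng1 at 67 and 68.9 FPKM in Jak2WT and 186 and 171 in Jak2V617F (1.38, standard error 0.10, adjusted p = 0.000328), Zmat3 at 3.68 and 3.6 against 11.2 and 11.1 (1.39, SE 0.12, adjusted p = 0.000488), and the pore-forming Bax at 23.8 and 19.9 against 46.8 and 43 (1.01, SE 0.12, adjusted p = 0.00138). Bcl2l11, which encodes the pro-apoptotic BIM, rose from 1.81 and 1.75 to 5.06 and 5.56 FPKM (1.18, adjusted p = 0.00134). The anti-apoptotic relatives parted: Bcl2l1 and Mcl1 rose as given above, and Bcl2 fell from 75 and 72.9 to 21.4 and 17.1 FPKM (-1.90, adjusted p = 0.00161).

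Ribosomal protein genes were higher throughout much of their list. All 75 were tested, 55 were called higher and 0 lower, and the median was 0.48. The number higher was 23 without Jak2WT clone 1, 35 without Jak2WT clone 3, 33 without Jak2V617F clone 1, 49 without Jak2V617F clone 3 and 25 with no filter, with 0 lower each time. Rpl13 was at 254 and 267 FPKM in Jak2WT and 504 and 485 in Jak2V617F (0.92, standard error 0.10, adjusted p = 0.00104), Rpl13a at 35.9 and 38.9 against 61.6 and 64.7 (0.74, SE 0.09, adjusted p = 0.00151), and Rps7 at 317 and 343 against 588 and 517 (0.74, SE 0.10, adjusted p = 0.00213). The elongation factors Eef1a1 (0.60, adjusted p = 0.0055) and Eef2 (0.65, adjusted p = 0.00617) were higher too, and Eef1a1 held 7402 and 6626 FPKM in the mutant clones. Of 32 ribosome biogenesis genes 15 were higher and 0 lower (median 0.32), or 7 or 8 higher without Jak2WT clone 1, Jak2WT clone 3 or Jak2V617F clone 1, among them the nucleolar Npm1, at 743 and 817 against 1225 and 1186 FPKM (0.63, adjusted p = 0.00232), and Gnl3 (0.65, adjusted p = 0.00138). Eef1a1, Eef2 and Npm1 each lost their call in 1 of 13 alternatives. These genes are abundant enough to enter the summed FPKM, and with equal sums 49 ribosomal protein genes were higher and 0 lower, at a median of 0.32. Ribosome biogenesis genes then had 12 higher and 0 lower and a median of 0.17. Processed pseudogenes share the sequence of many ribosomal protein genes, so levels of single members are uncertain. In the dKO clones 0 of the 75 were called in either direction.

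Genes of the integrated stress response, in which ATF4 raises amino acid synthesis and uptake, were higher in part. Of 24 tested 11 were called higher and 2 lower (median 0.32), and 7 higher without Jak2WT clone 3. The lower calls went to 0 without either Jak2WT clone or Jak2V617F clone 3. Atf4 rose from 106 and 111 to 177 and 182 FPKM (0.72, standard error 0.08, adjusted p = 0.00108), its relative Atf5 from 11.1 and 11.6 to 28.1 and 33.5 (1.36, SE 0.20, adjusted p = 0.00285), and the asparagine synthetase gene Asns from 72.6 and 73 to 125 and 142 (0.86, SE 0.11, adjusted p = 0.00208). Cth, which makes cysteine, was at 0 and 0.0207 FPKM (0 and 1 read) in Jak2WT and 1.52 and 2.56 FPKM in Jak2V617F. With equal sums the stress response list had 10 higher and 4 lower members and a median of 0.17, and with voom 11 and 4. Of 13 tested amino acid transporters 5 were higher and 0 lower, with Slc3a2 at 84.9 and 88.7 against 147 and 157 FPKM (0.80, adjusted p = 0.000919), its partner Slc7a5 at 73.6 and 79.9 against 128 and 129 (0.74, adjusted p = 0.00289), and Slc38a2 at 34.7 and 33.2 against 62.8 and 77.2 (1.02, adjusted p = 0.00108).

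Chaperones of the endoplasmic reticulum went the other way. Of 22 tested genes of the unfolded protein response 3 were called higher and 12 lower (median -0.40). Calr, whose human gene is itself mutated in myeloproliferative neoplasms, went from 459.9 and 527 to 275 and 219 FPKM (-1.0, adjusted p = 0.00214), Sdf2l1 from 62.7 and 72.5 to 29.2 and 26.3 (-1.25, adjusted p = 0.000449), and Hspa5, the chaperone BiP, from 238 and 247 to 189 and 152 (-0.51, adjusted p = 0.0129). Hspa5 was lost in 3 of 13 alternatives. With equal sums 2 members were higher and 18 lower. Dnajb9 was 1 of the 3 higher (0.72, adjusted p = 0.00662). Sdf2l1 and Dnajb11 lie on chromosome 16, and without them 10 of 20 were lower and the median was -0.31.

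Many genes of lipid synthesis were lower in Jak2V617F, with 0 of 33 tested genes of cholesterol and fatty acid synthesis called higher and 20 lower (median -0.51), and 13 lower without Jak2WT clone 3. The desaturase Scd2 was the most abundant member named, at 347 and 328 FPKM in Jak2WT and 149.5 and 136 in Jak2V617F (-1.24, standard error 0.09, adjusted p = 0.000296). Elovl5, which lengthens fatty acids, dropped from 50.7 and 55.3 to 24 and 23.9 FPKM (-1.12, SE 0.08, adjusted p = 0.000328). Acat2, an early enzyme of cholesterol synthesis, was at 21.9 and 22.8 against 10.1 and 5.72 FPKM (-1.43, adjusted p = 0.00455). Against 16.5% higher and 15.9% lower over all genes, fatty acid oxidation had 4 higher and 2 lower among 17, and NRF2 targets with antioxidant genes 5 and 6 among 29. With equal sums the counts were 2 and 5 and 5 and 13. Without Jak2WT clone 1 these lists had 1 and 0 and 2 and 1, without Jak2WT clone 3 1 and 0 and 3 and 1, without Jak2V617F clone 1 1 and 0 and 4 and 6, and without Jak2V617F clone 3 4 and 0 and 5 and 2.

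Of the immune lists, antigen presentation had the larger share of called members. Of 16 tested genes of MHC and antigen presentation 13 were called higher and 2 lower (median 0.69). The lower calls went to 0 without either Jak2WT clone and to 1 without Jak2V617F clone 3. The light chain of class I molecules, B2m, rose from 210.1 and 228 to 613 and 585 FPKM (1.45, standard error 0.09, adjusted p = 0.000141). The peptide transporter genes rose together, Tap1 from 11.6 and 10.9 to 32.3 and 31.4 FPKM (1.43, SE 0.08, adjusted p = 8.93e-05) and Tap2 from 26.8 and 25.3 to 77.2 and 72.4 (1.48, SE 0.08, adjusted p = 7.15e-05). The class I heavy chain H2-D1 was at 7.74 and 5.7 against 17.2 and 16.6 FPKM (1.23, adjusted p = 0.00091), in a family of similar genes whose reads can be shared. Tapbp, which ties the transporter to class I, was lower (-0.65, adjusted p = 0.0102), a call lost in 2 of 13 alternatives. Of 23 tested interferon response genes 9 were higher and 2 lower, and the 2, Parp9 and Parp14, lie on chromosome 16. With equal sums 7 of the interferon list were higher and 4 lower, and with voom 8 and 4. The list had 1 lower call without either Jak2WT clone or Jak2V617F clone 1. Ifitm1, an interferon-inducible membrane protein outside that list, was lower, at 1664 and 1687 FPKM against 286 and 232 (-2.70, adjusted p = 0.000444).

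**Figure D4:**
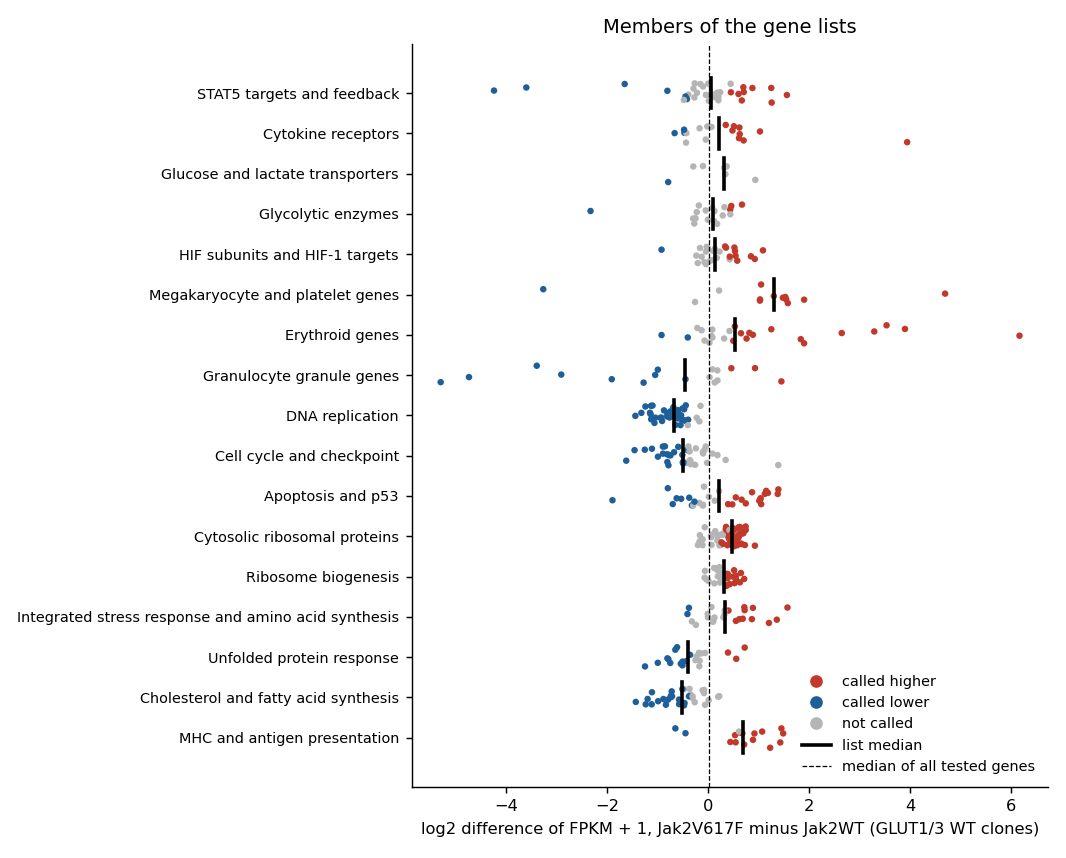
Difference between Jak2V617F and Jak2WT in the GLUT1/3 WT clones on log2(FPKM + 1) (x axis) for each tested member of 17 gene lists (y axis), red where called higher, blue where called lower and grey where not called, with a bar at each list's median and a dashed line at the median of all genes. Replication, cell cycle and lipid synthesis lists lie left of the line, and the ribosomal, antigen presentation, erythroid and megakaryocyte lists right of it.

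Some genes were close to silent in one background. With a level under 0.1 FPKM in both clones of one group and at least 1 FPKM in both of the other, 32 genes were found in Jak2V617F alone, 24 of them protein coding, and 43 in Jak2WT alone, 22 of them protein coding. Hbb-bs, Kel and Fcgr3 were among the first. Trbv13-2, a variable segment of the T cell receptor beta locus, was among the second, at 54.5 and 60.5 FPKM in Jak2WT and 0 in Jak2V617F (-5.87, adjusted p = 3.10e-05), though segments of this locus resemble each other and can share reads. Other large differences outside the lists were those of Xdh, a purine-degrading oxidase, from 0.228 and 0.101 to 11.2 and 14.7 FPKM (3.57, adjusted p = 0.000156), of Tgm2, a protein cross-linking enzyme, from 17 and 13.5 to 177 and 198 (3.54, adjusted p = 7.15e-05), and of the oxidoreductase gene Wwox, from 1.85 and 1.63 to 26.8 and 23 (3.24, adjusted p = 1.36e-05). In the dKO clones Wwox was at 1.59 and 1.59 FPKM in Jak2WT and 1.48 and 1.58 in Jak2V617F. Among the most abundant genes called lower were Ptma, a nuclear protein of growing cells (-0.44, adjusted p = 0.0394), and the galectin Lgals1 (-0.44, adjusted p = 0.0317). Ptma was lost in 6 of 13 alternatives (adjusted p up to 0.383) and Lgals1 in 5 (up to 0.128).

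The genes of chromosome 16 were lower as a block. Of 350 tested there, 13 were called higher and 176 lower (50.3%, against 15.9% of all genes), 295 (84.3%) had a negative difference, and the median was -0.35. The next highest share of genes called lower was 25.5% on chromosome 7, where the median was -0.09, and the other autosomes had medians nearer to or above 0. By library, the median of the chromosome's genes, centred over all 8 libraries, was -0.24 in Jak2V617F GLUT1/3 WT clone 1 and -0.26 in clone 3, and 0.0151 to 0.105 in the other 6, the Jak2V617F dKO clones included. Between the dKO clones of both backgrounds the chromosome's median difference was -0.06. In bins of 10 Mb the median was -0.24 to -0.43 over the first 60 Mb and -0.30 from 90 Mb on. It was -0.28 between 60 and 70 Mb and close to 0 from 70 to 90 Mb, where bins held 7 and 11 genes. The number of copies of the chromosome in these clones was not measured and its part in the result was not tested. Without Jak2WT clone 1, 101 of its genes were called lower, and without Jak2WT clone 3, 96. Leaving the chromosome out, 1839 genes were higher and 1617 lower.

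**Figure D5:**
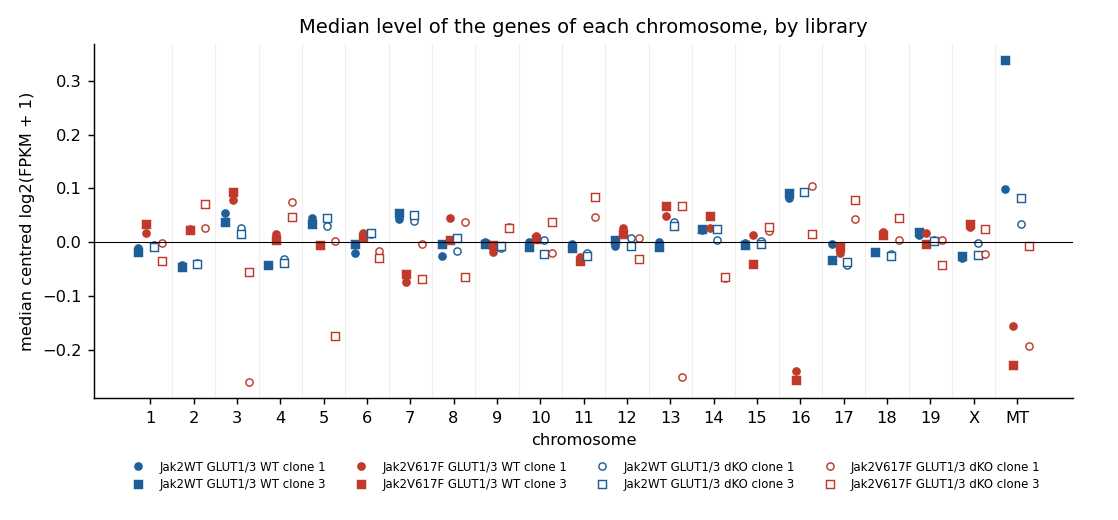
Median of centred log2(FPKM + 1) over the tested genes of each chromosome (x axis) in each of the 8 libraries (y axis, relative to the library's median over all genes), with blue for Jak2WT, red for Jak2V617F, filled symbols for GLUT1/3 WT, open symbols for dKO, circles for clone 1 and squares for clone 3. On chromosome 16 both filled red symbols lie at -0.24 and -0.26, apart from the other 6.

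Set beside the same comparison among dKO clones, 933 of the 3645 genes called here were also called there in the same direction, 120 in the opposite direction and 2592 were not called. The groups of the comparisons are separate clones, and over all genes 16.5% were higher and 15.9% lower here against 6.98% and 10.3% there, so list counts below are to be read against these shares. Erythroid genes had 14 higher and 2 lower members with intact transporters and 17 and 0 without them, and megakaryocyte genes 10 and 1 against 8 and 1. Granulocyte genes had 3 and 9 against 0 and 11. The stress response list had 11 and 2 against 1 and 6, antigen presentation 13 and 2 against 5 and 1, and lipid synthesis 0 and 20 against 0 and 7.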

How the data were processed

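RNA of 8 32D clones was sequenced as poly-A libraries. Per the labels, the authors trimmed reads with fastp 1.0.1, aligned them with HISAT2 2.2.1 to mm39 (GRCm39), counted genes with featureCounts 2.0.6 and deposited FPKM per gene, with no count table used here. The total behind each FPKM is not given in the sources used here, and sums differ between libraries. FPKM times gene length gave whole reads within 0.01 of a step, and these gave the depth and the counts for voom.

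Differences were tested with limma 3.58.1 (R 4.3.3, lmFit and eBayes with trend) on log2(FPKM + 1), with 1 mean for each of the 4 groups, all 8 libraries and Benjamini-Hochberg adjustment over the 11247 genes. The script was tested on simulated data. P-values measure the spread between these clones. Alternatives were another pseudocount, filter, scaling, trend and set of libraries, voom, a replicate block and leaving out each clone.

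The members and gene lists were chosen with earlier results of these data known. Named were Jak2, Slc2a1, Slc2a3, and among the called genes those with the 15 largest differences each way, the 10 most abundant each way, the 4 largest differences in each list and the 5 largest interactions each way, of which some, like an element that all clones share, are not reported here. A further 36 genes were chosen after their values were seen, mostly as other list members. Starts and promoters came from the GENCODE vM39 annotation of GRCm39.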

Additional observations from a re-analysis of the deposited data

Results flagged for a closer look

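For 54 of the genes given above, the difference between Jak2V617F and Jak2WT in GLUT1/3 WT clones was not the same as in dKO clones. The measure was the interaction term of the limma fit (adjusted p below 0.05), which was called for 11.3% of all genes. Most genes were named for a called difference in GLUT1/3 WT clones and some for a large interaction. That choice raises the share with a called interaction, so the 54 are not to be compared with the 11.3%. Values below are the log2(FPKM + 1) difference in GLUT1/3 WT clones minus that in dKO clones, and a positive one means that the mutant was relatively higher with intact transporters. With 1 clone left out the number of such genes fell to between 70 and 858 of 1270, so single values rest on few clones, and their cause was not tested.

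Of the signalling genes, the value was 0.61 for Pim1, 0.52 for Mcl1, 0.72 for Myc, 1.41 for Il2rb, 0.94 for Csf2rb2 and 0.81 for Ifnar2, and it was negative for Socs1 (-1.21). Among lineage genes it was 2.34 for Rhag, 0.73 for Gp9, 0.99 for Cebpe, 1.71 for Fcgr3 and 2.06 for Fcgr1. It was negative for Kel (-1.87), Thbs1 (-2.98), Prg2 (-3.96) and Epx (-2.56). Kel reached 85.7 and 69.1 FPKM in the mutant dKO clones, and Prg2 was already lower in the Jak2WT dKO clones, at 28.7 and 18.4 FPKM.

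The 8 replication and cell cycle genes had negative values throughout, with -1.45 for Rrm2, -1.58 for Mcm4, -1.57 for Cdc6, -1.12 for Tyms, -1.04 for Pcna, -1.60 for Ccne1, -1.30 for Mki67 and -1.50 for Brca1. Zmat3, a p53 target, stood at 1.12. In the genes for translation the value was 0.70 for Rpl13, 0.73 for Rpl13a, 0.63 for Rps7, 0.60 for Eef1a1, 0.77 for Npm1 and 0.84 for Gnl3.

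In the stress response it was 0.98 for Atf4, 2.12 for Atf5, 1.26 for Asns and 1.51 for Cth, with 1.08 for Slc3a2, 1.42 for Slc38a2 and 1.13 for Slc7a5 among the amino acid transporters. For the chaperone genes it was 1.33 for Dnajb9 and -0.75 for Sdf2l1, and for the lipid gene Acat2 -1.49. For glycolytic and HIF-linked genes it was 0.72 for Gpi1, 1.20 for P4ha1, 0.78 for Pdk1 and 0.54 for Hif1a, which was not called in the GLUT1/3 WT clones themselves.

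For antigen presentation it was 1.36 for B2m, 0.62 for Tap1, 1.07 for Tap2 and 0.91 for H2-D1. Outside the lists it was 3.73 for Xdh, 3.27 for Wwox, 1.84 for Tgm2, 1.09 for Lgals1 and -3.05 for Trbv13-2.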

How the results depend on the processing

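With 2 clones a group, leaving out 1 left 857 to 1492 genes higher, 795 to 1328 lower, 96 to 137 of the chromosome 16 genes lower and 70 to 858 interactions. A lone clone is then assumed to vary like the other groups. Without a filter on low values 366 interactions were called, and with voom on recovered reads 1912. Scaling each library to the same summed FPKM gave 2961 genes lower, and list medians of -0.0972 for STAT5 targets, -0.0503 for glycolytic enzymes, -0.0133 for HIF targets, 0.17 for the integrated stress response, -0.82 for DNA replication, -0.62 for the cell cycle, 0.39 for erythroid genes, -0.60 for granulocyte genes, 0.56 for antigen presentation, -0.53 for the unfolded protein response and 0.32 for ribosomal proteins. The shift of all genes by -0.12 is part of that alternative's construction. With voom the medians were 0.00114 for glycolytic enzymes, 0.0525 for HIF targets, -0.88 for DNA replication, -0.61 for the cell cycle, -0.57 for granulocyte genes, 0.76 for antigen presentation, -0.555 for the unfolded protein response and 0.37 for ribosomal proteins. A pseudocount of 0.1 gave 0.67 for erythroid, 1.49 for megakaryocyte and 0.84 for antigen presentation genes. Without the filter, HIF targets had 0.0916, megakaryocyte genes 1.02, granulocyte genes -0.0478 and antigen presentation 0.61, since genes near 0 then enter, and with the filter over all 8 libraries megakaryocyte genes had 1.05. Leaving out 1 clone gave -0.0655 to 0.111 for STAT5 targets, 0.0292 to 0.118 for glycolytic enzymes, 0.13 to 0.19 for HIF targets and -0.49 to -0.42 for the cell cycle. The STAT5 median was negative without Jak2V617F clone 1. Without chromosome 16, chosen after seeing the data, the unfolded protein response had -0.31.

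Among single genes, leaving out 1 clone gave -0.346 to 0.0336 for Socs3, above 0 without Jak2WT clone 1 or Jak2V617F clone 3, and -0.0521 to 0.0288 for Hif1a, above 0 without Jak2V617F clone 3, and neither gene was called. Over the named genes and all alternatives 1431 values kept direction and side of the threshold, 99 were no longer called and 1, Slc2a3, became called; the cause was not tested. Clones share a number but, as far as the labels say, nothing else: their deviations correlated at r = -0.268 between the groups. With the clone number as a replicate block, 1763 genes were higher, 1681 lower and 1022 had an interaction.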
